A study of Mus musculus with 2 samples.

Results

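Interferon-stimulated genes are genes that cells transcribe after interferon reaches its receptors. The list examined here has 37 of them, and 36 were found among the 31053 genes of the count matrices (Mx2 was not analysed here). The list was selected on these data, because Rsad2 was high in the neurons labelled L5 PT CTX. That label stands for layer 5 pyramidal-tract neurons, which send axons out of the cortex to the brainstem and spinal cord. Levels in L5 PT CTX against other neurons, and levels of nuclei split by Rsad2, are therefore given as descriptions without a test. Values given in pairs are those of the male library and then the female library.

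The nuclei came from the injured side of the cerebral cortex of mice 7 days after a closed-skull mild traumatic brain injury (mTBI), older than 7 weeks and heterozygous for Atf3-CreER and for the nuclear envelope reporter Sun1-sfGFP. Atf3 is a transcription factor induced by injury, the Atf3-CreER allele makes a tamoxifen-dependent Cre in cells that express it, and tamoxifen on days 4 and 5 after injury left a GFP mark on the nuclei of cells that expressed Atf3 then. GFP+ nuclei were sorted and sequenced as 2 libraries, 1 from a pool of 4 males and 1 from a pool of 4 females, so the spread of 2 libraries holds both sex and pool and there are no animals to compare within them. All nuclei shared the injury, the 2 alleles and the drug, no uninjured library was analysed here, and nothing below compares injured with uninjured tissue or cells with Atf3 against cells that never had it.

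Interferons bind receptors on the cell surface, the receptors activate Jak kinases, and these activate a complex with Stat2 and Irf9 that binds a short DNA element called ISRE in front of its target genes. A second short element in front of such genes is called GAS. Many of the proteins made limit viral replication: Rsad2 (viperin) makes a chain-terminating nucleotide, the Ifit proteins bind foreign RNA, Ifih1 and Ddx58 sense double-stranded or uncapped RNA, the Oas enzymes activate RNase L, and Mx1 blocks incoming viral particles. In the brain, microglia, astrocytes and neurons can all respond to interferon, and such genes are known to rise in glia after injury.

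The sequences just before the start sites of 5 members are printed because the list was selected by Rsad2, Ifit1 gave the second most member UMIs in L5 PT CTX, Cmpk2 is the neighbour of Rsad2, and Ifit3 and Isg15 are members of the same response. Rsad2 lies on chr12:26442746-26456452 on the minus strand and Cmpk2, which supplies the nucleotide that Rsad2 uses, on chr12:26469204-26479837 on the plus strand (GRCm38, GENCODE), 12.751 kb apart and pointing away from each other. Each line is 170 bases upstream of a start site in RefSeq, build GRCm38.p6, read 5′ to 3′ on the strand of the gene, at chr12:26456453-26456622 (Rsad2), chr12:26469045-26469214 (Cmpk2), chr19:34640719-34640888 (Ifit1), chr19:34583359-34583528 (Ifit3) and chr4:156200819-156200988 (Isg15). Capitals mark each match to the ISRE core on either strand, spelled as GAAA, 2 free bases and GAAA.
Rsad2: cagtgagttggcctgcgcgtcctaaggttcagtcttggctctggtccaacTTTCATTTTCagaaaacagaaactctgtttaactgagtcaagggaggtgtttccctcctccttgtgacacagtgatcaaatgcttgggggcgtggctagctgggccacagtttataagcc
Cmpk2: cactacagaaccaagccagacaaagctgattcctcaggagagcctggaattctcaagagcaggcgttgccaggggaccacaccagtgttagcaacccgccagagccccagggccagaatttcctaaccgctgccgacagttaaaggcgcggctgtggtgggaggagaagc
Ifit1: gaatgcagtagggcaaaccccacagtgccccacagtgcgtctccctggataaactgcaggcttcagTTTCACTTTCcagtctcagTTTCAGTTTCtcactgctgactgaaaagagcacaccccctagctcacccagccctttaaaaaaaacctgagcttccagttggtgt
Ifit3: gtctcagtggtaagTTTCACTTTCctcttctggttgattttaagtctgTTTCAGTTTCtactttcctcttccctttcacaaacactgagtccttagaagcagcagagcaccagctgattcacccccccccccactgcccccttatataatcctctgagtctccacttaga
Isg15: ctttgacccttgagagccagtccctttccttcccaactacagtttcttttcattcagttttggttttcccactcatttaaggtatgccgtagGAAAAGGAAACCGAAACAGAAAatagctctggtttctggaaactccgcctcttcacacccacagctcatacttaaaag

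Rsad2 had 1 ISRE match, at position -120 from the start site. Ifit1 had 2, at -104 and -85, and Ifit3 had 2, at -156 and -122. In Isg15 3 matches overlapped, at -78, -72 and -66, and the window of Cmpk2 held none. RefSeq windows of 300 bases, 250 before and 50 after a start, were found for 29 of the 37 members. Of these, 14 (48.3%) held an ISRE match, against 3.44% of 32851 windows of the same length and 3.99% of 27025 genes. The other members with a match were Stat2, Oas1a, Oas3, Ifih1, Ddx58, Bst2, Trim30a, Gbp2, Gbp3 and Eif2ak2. The GAS core, TTC, 3 free bases and GAA on either strand, was in 6 of the 29 (20.7%) and in 9.55% of genes. A match of letters is a description and not a binding site.

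The 2 libraries held 8171 nuclei with a deposited label, 4003 male and 4168 female. The female library was deeper, with 23127444 UMIs (unique molecular identifiers, counts of captured RNA molecules) against 10823136, and medians of 3710 and 1742 UMIs per nucleus. 1 cell barcode was shared by the libraries. For the female library 2 labels, its sex field and its source name, say male, while its title and the deposited table say female. Xist was at 1638 CPM in it (UMIs per 1000000 UMIs of the sum) and at 3.33 CPM in the male library. Sums of UMIs were formed per library and label for 9 neuronal labels with at least 50 nuclei and for Unknown, microglia (Micro-PVM, which can include perivascular macrophages), astrocytes, oligodendrocytes, SMC-Peri (mural cells) and VLMC (vascular leptomeningeal cells). The 9 neuronal labels were L5 PT CTX, the excitatory L2/3 IT CTX-1, L2/3 IT CTX-2, L4/5 IT CTX, L6 IT CTX and L6 CT CTX, and the inhibitory Pvalb, Sst and Vip. They held 2499 nuclei.

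Neuronal markers were high in every neuronal label, while the check of L5 PT CTX by its own markers was less clear. The 4 neuronal markers summed to between 10434 and 20823 CPM in the 9 neuronal labels and to between 879 and 1978 in microglia and other non-neuronal labels. A list of 5 markers of L5 PT neurons summed to 137 and 117 CPM (male, female) in L5 PT CTX. That was above the other neuronal labels but for L6 CT CTX (158 and 162), and Unknown was higher still, at 378 and 354. All of the 9 microglial markers were also found in L5 PT CTX, summing to 570.2 and 885 CPM there against 6874 and 6923 in microglia. Over the 9 neuronal labels this sum ran from 321 to 1886 CPM, so UMIs of microglial markers were present in every neuronal label. Their part in each neuronal level was not tested beyond the alternatives given with the results. Fewer nuclei that transcribe a gene and less RNA in each cannot be told apart in these sums, so shares of nuclei are given beside them.

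Rsad2, the antiviral enzyme viperin, was at 39.8 and 33.0 CPM in L5 PT CTX (36.4 ± 4.84, SD, n = 2 libraries). The 8 other neuronal labels, pooled, were at 5.32 and 5.41 CPM. The ratio was 7.48 and 6.10. These are the values on which the list was selected. In L5 PT CTX 26 of 352 male nuclei (7.39%, exact binomial 95% interval 4.88 to 10.6%) and 22 of 290 female nuclei (7.59%, 4.82 to 11.3%) held an Rsad2 UMI, and in the other neuronal labels 0.806% and 1.27% did. The intervals cover counting error only.

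Across the neuronal labels Rsad2 was low nearly everywhere outside L5 PT CTX. L2/3 IT CTX-1 was at 1.81 and 0.907 CPM, L2/3 IT CTX-2 at 0 and 3.90, and L4/5 IT CTX at 7.74 and 1.41. The male L6 IT CTX value of 55.2 CPM came from 11 UMIs of 1 nucleus, and the female value was 0. Pvalb was the other neuronal label with Rsad2 in several nuclei of both libraries, at 7.88 and 18.6 CPM (5 and 36 UMIs). Sst was at 0 and 0.695 CPM, and no Rsad2 UMI was found in L6 CT CTX or Vip. For the 41 and 44 nuclei of L6 CT CTX the upper exact binomial 95% limits on the share of nuclei with an Rsad2 UMI were 8.60% and 8.04%, and for the 34 and 27 nuclei of Vip 10.3% and 12.8%. These limit nuclei with a UMI at this depth, not nuclei that express the gene.

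Unknown nuclei, which carried neuronal markers at 7366 and 6757 CPM, held 1 and 2 Rsad2 UMIs (1.06 and 1.26 CPM), in 0.444% and 1.18% of nuclei. Their median depth of 3314 and 7918 UMIs was under the 3790 and 10700 of L5 PT CTX. Barcodes of more than 100 and up to 500 UMIs that were not called as nuclei, a profile of free RNA, held Rsad2 at 14.0 and 10.7 CPM, and barcodes of up to 100 UMIs at 31.1 and 21.7 CPM from 15 and 20 UMIs. The L5 PT CTX level was above both profiles in both libraries, the microglial level lay between them, and the pooled other neuronal labels were below both. Were every microglial marker UMI of a neuronal label free RNA, such RNA would make up 21.3% and 22.5% of the UMIs of L5 PT CTX by the first of these profiles and 24.5% and 33.6% by the second, and 18.6% and 21.8%, and 21.4% and 32.5%, of those of Unknown. With each nucleus thinned to 2300 UMIs, 5.60% and 3.91% of L5 PT CTX nuclei held an Rsad2 UMI, against 0.724% and 0.661% of other neuronal nuclei and 0.625% of Unknown nuclei in either library.

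Non-neuronal labels also held Rsad2. Microglia were at 23.7 and 16.0 CPM, in 2.43% and 3.04% of nuclei. Astrocytes were at 92.8 and 19.6 CPM, from 15 and 9 UMIs in 53 and 62 nuclei, and without the nucleus with the most UMIs they were at 44.3 and 4.40. Oligodendrocytes were at 37.0 and 25.4 CPM from 2 and 5 UMIs, SMC-Peri at 4.53 and 12.4, and VLMC at 10.3 and 1.99. By the mean of both libraries astrocytes were thus the highest label for Rsad2 (56.2 ± 51.7, SD, n = 2), with a spread that takes in the L5 PT CTX level.

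**Figure D1:**
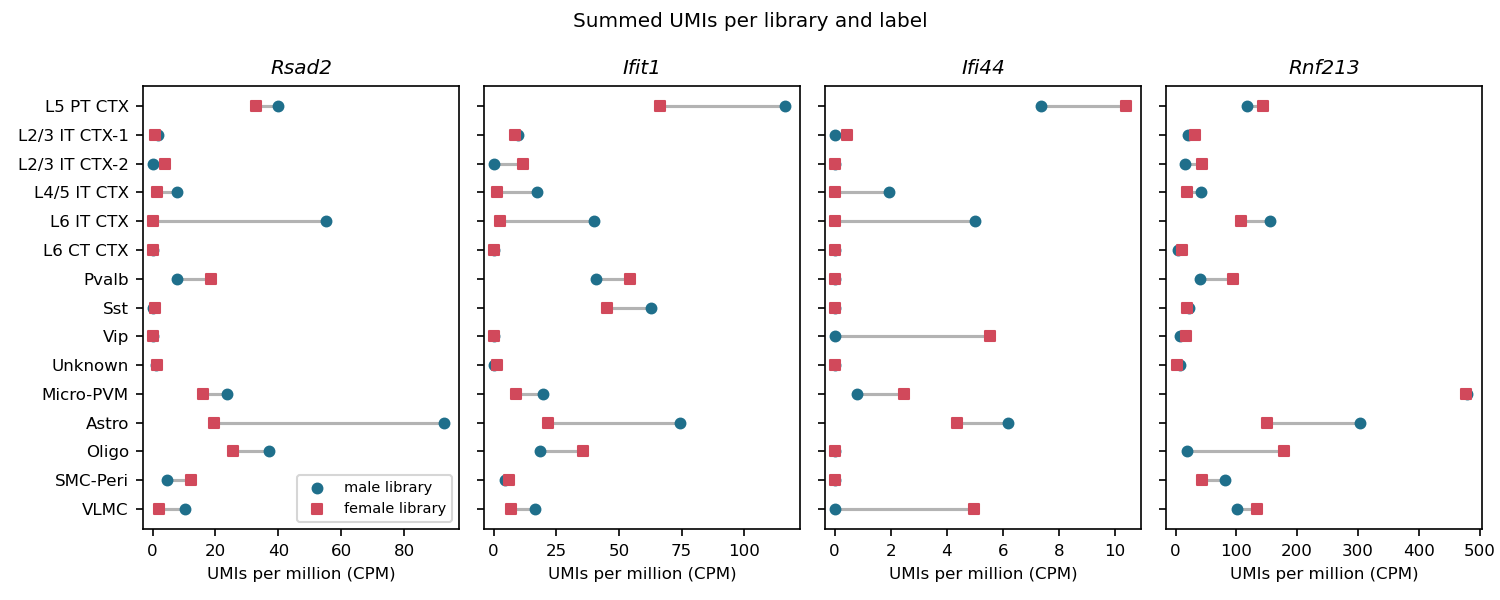
CPM (UMIs per 1000000 UMIs, x axis, linear, each panel with its own range) of Rsad2, Ifit1, Ifi44 and Rnf213 in 15 labels, with a circle for the male and a square for the female library and a line joining them. Rsad2 in L5 PT CTX was at 39.8 and 33.0 CPM, the male L6 IT CTX point of 55.2 is 1 nucleus, and Rnf213 was far highest in microglia, at 480.0 and 477.9 CPM.

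Cmpk2, which shares its stretch of chromosome 12 with Rsad2, had too few UMIs in neurons to be compared. It was at 1.84 and 1.16 CPM in L5 PT CTX (3 and 4 UMIs), and the other neuronal labels were at 0.694 and 0.659 (3 and 5 UMIs). L2/3 IT CTX-1 was at 1.81 and 0.907 CPM, Pvalb at 0 and 1.03, Sst at 0 and 0.695, and the remaining 5 neuronal labels had no Cmpk2 UMI. Unknown was at 1.06 and 0 CPM. Microglia (8.42 and 3.85 CPM) and astrocytes (18.6 and 6.55, 3 UMIs each) were higher, oligodendrocytes were at 0 in both libraries, SMC-Peri at 0 and 12.4, and VLMC at 2.05 and 1.99. With 3 or 4 UMIs the L5 PT CTX level of Cmpk2 is at the limit of this depth (3 counts are 1.84 and 0.868 CPM). In L5 PT CTX nuclei with an Rsad2 UMI it was at 6.34 and 8.17 CPM (1 and 3 UMIs), and in those without at 1.36 and 0.324 CPM (2 and 1 UMIs).

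Effectors, the RNA sensor Ifih1 and the factors Irf7 and Stat2 had higher levels in L5 PT CTX than in the other neuronal labels. A member was counted where its CPM, with 1 added, was at least 2-fold higher in both libraries, and 28 of 36 members had enough UMIs (at least 10 in each library over both groups). Of these, 10 were higher (Rsad2, Ifit1, Isg15, Mx1, Ifi27, Ifi44, Ifih1, Irf7, Stat2 and Rnf213) and 0 lower. Over all 13054 genes compared, 2.23% were higher and 4.6% lower. Nothing about the list is read from this count, since the list was selected on the same contrast.

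Among the effectors, Ifit1, which binds RNA that lacks the cap of the host, was at 116 and 66.5 CPM in L5 PT CTX against 25.2 and 25.6 in the other neuronal labels. Ifi44, a cytoplasmic protein of unclear function, was at 7.35 and 10.4 CPM against 0.463 and 0.264, where 2 UMIs in each library were found in all other neuronal labels. Isg15, a ubiquitin-like modifier, was at 9.80 and 4.34 CPM against 0.694 and 0.659. For these genes both libraries of L5 PT CTX lay above both of the other labels. Mx1, a dynamin-like GTPase, was at 11.6 and 11.3 CPM against 3.93 and 2.11, and Ifi27 at 15.3 and 11.6 against 4.16 and 3.96. Rnf213, a large ubiquitin ligase and the member with the most UMIs in all, was at 118 and 144 CPM against 31.5 and 46.7.

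Of the sensors and factors, Ifih1 (MDA5) was at 45.9 and 37.9 CPM against 5.55 and 12.9. Stat2, part of the complex that binds ISRE, was at 58.8 and 61.0 CPM against 25.2 and 28.6. Irf7, a factor that amplifies interferon genes, was at 7.96 and 5.21 CPM against 2.08 and 0.659. Just inside the 2-fold limit were Stat2 (ratios 2.33 and 2.13) and just outside it Trim30a, whose ratios of 2.74 and 2.09 dropped under 2 in the female library once 1 CPM was added. Of the other sensors, Ddx58 was at 16.5 and 20.8 CPM against 9.25 and 7.52, under 2-fold in the male library, and Dhx58 at 1.22 and 0.289 against 2.08 and 1.58. Other members were not higher in L5 PT CTX: Ifit2 was at 6.74 and 3.18 CPM against 11.1 and 10.7, Herc6 at 23.3 and 11.6 against 27.1 and 17.4, and Irf3 at 6.74 and 4.05 against 5.55 and 5.93. The neighbouring Ifit genes thus had different distributions over the neuronal labels. Reads of Ifit3 may be shared with its near-identical copy Ifit3b, and the same holds within the Oas1, Trim30 and Gbp families.

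Most L5 PT CTX nuclei held few UMIs of these genes and a small number held many. The median L5 PT CTX nucleus had 1 member UMI in either library. The 5% of nuclei with the most member UMIs held 47.3% (male) and 60.7% (female) of them, and 7.54% and 7.90% of all UMIs. The highest female nucleus held 151 member UMIs of 15 members, with 38 of Rnf213, 28 of Rsad2 and 28 of Ifih1, among 41608 UMIs of which 25 were of microglial markers. Rsad2 itself was 1 UMI in 12 male and 6 female nuclei, and 5 or more in 4 and 7. Without the nucleus with the most Rsad2 UMIs, L5 PT CTX was at 34.5 and 25.2 CPM, so the level did not rest on 1 nucleus. The 3 nuclei with the most Rsad2 UMIs held 22 of 65 UMIs (male) and 61 of 114 (female), so much of the female level rested on 3 nuclei. In the other neuronal labels, pooled, the 5% of nuclei with the most member UMIs held 47.0% and 56.9% of them. Such a concentration was thus not particular to L5 PT CTX.

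L5 PT CTX nuclei with an Rsad2 UMI held more of the other members than those without. The 35 other members summed to 2392 and 3043 CPM in the nuclei with Rsad2 and to 415 and 191 CPM in those without, a ratio of 5.77 and 15.9 (10.9 ± 7.19, SD, n = 2). The 26 and 22 nuclei with Rsad2 held 9.65% and 10.6% of the UMIs of L5 PT CTX but 38.1% and 65.5% of its UMIs of the other members. They were deeper, with medians of 6225 against 3752 UMIs (male) and 15534 against 10431 (female). After thinning every nucleus to 2300 UMIs the mean ratio was 9.01, and without Cmpk2 it was 10.8. Microglial markers summed to 590.1 CPM with Rsad2 and 568 without (male) and to 855 with and 889 without (female), with no common direction. Atf3 was at 76.1 against 64.4 CPM and 155 against 92.2, and its part in the split was not tested.

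Of 21 members with at least 10 UMIs in each library, 16 (76.2%) were at least 2-fold higher in both libraries in the nuclei with Rsad2, where 1.3% of 9688 genes were. The split uses 1 member to sort nuclei and nuclei are not replicates, so no test was made. Ifit1 was at 659.9 against 58.3 CPM and 509 against 13.9. Rnf213 was at 634 against 62.4 and at 1045 against 36.6. The gap was wider in the female library for both genes.

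The sensors Ifih1 and Ddx58 and the kinase Eif2ak2 were among the 16, while Dhx58, Tlr3 and Zbp1 had too few UMIs to be compared. Ifih1 was at 159 against 33.9 CPM and 250.4 against 12.6, and Ddx58 (RIG-I) at 31.7 against 14.9 and 103 against 11.0. Eif2ak2 (PKR), which halts translation when it meets double-stranded RNA, was at 95.2 against 23.0 and 125 against 11.0. Several factors and regulators were counted as well. Stat2 was at 146 against 49.5 and 226 against 41.4, Irf7 at 19.0 against 6.78 and 35.4 against 1.62, and Usp18, which restrains the receptor, at 44.4 against 4.75 and 27.2 against 2.59. Trim30a was at 146 against 25.8 and 114 against 6.47, Herc6, the Isg15 ligase of the mouse, at 95.2 against 15.6 and 89.8 against 2.27, and Xaf1 at 38.1 against 10.2 and 46.3 against 7.12. The factor Irf3 was at 6.34 against 6.78 and 2.72 against 4.21 CPM, lower with Rsad2 in both libraries on 1 UMI each, and Irf9 at 19.0 against 12.9 and 19.1 against 5.50.

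The remaining members of the 16 were effectors. Mx1 was at 57.1 against 6.78 CPM and 78.9 against 3.24, and Ifi44 at 44.4 against 3.39 and 76.2 against 2.59. Ifit3 was at 44.4 against 2.03 and 68.0 against 0.971, and Ifit2 at 19.0 against 5.42 and 24.5 against 0.647. Isg15 was at 25.4 against 8.13 and 21.8 against 2.27. Ifit2 was thus higher in nuclei with Rsad2 even though L5 PT CTX as a whole was below the other neuronal labels for it. This rests on 3 and 9 Ifit2 UMIs with Rsad2 and 8 and 2 without. The male values with Rsad2 of Irf7, Isg15 and Ddx58 also came from few UMIs, 3, 4 and 5. Of the 5 members compared and not counted, Ifi27 was at 25.4 against 14.2 CPM and at 2.72 against 12.6, and Parp14, Oasl2, Irf9 and Irf3 were not 2-fold higher in both.

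**Figure D2:**
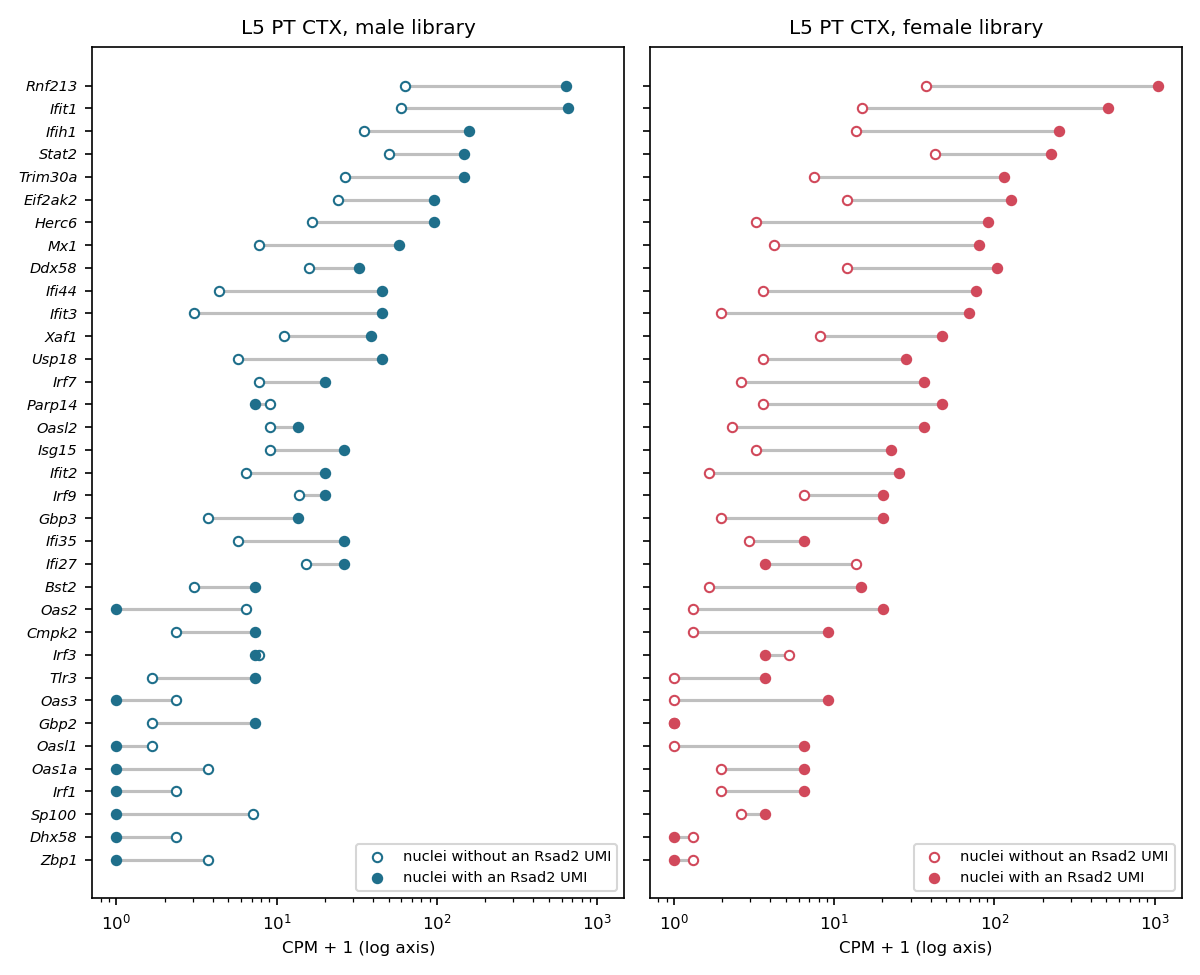
CPM plus 1 (x axis, log scale) of the 35 members other than Rsad2 in L5 PT CTX nuclei with an Rsad2 UMI (filled, 26 male and 22 female nuclei) and without one (open, 326 and 268 nuclei), male library left and female library right. Rnf213 and Ifit1 reach 634 to 1045 and 509 to 659.9 CPM in the nuclei with Rsad2, and Ifi27 and Parp14 are among the members that change order between the libraries.

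Genes of the pathway outside the list were looked at in the same split. Of 33 such genes with enough UMIs, 10 (30.3%) were at least 2-fold higher in both libraries in nuclei with Rsad2, beside 1.3% of all genes. Among the 10 were Irf5, Irgm1, Gbp7, B2m, Nlrc5, Samd9l, Ddx60, Trim25 and Parp9. Of the 33, 0 were lower. The share of all genes lower in this split was not counted, so nothing is read from that 0. Nlrc5, a regulator of antigen presentation genes, was at 146 against 8.13 CPM and 100.7 against 2.59, and B2m, the light chain of MHC class I, at 44.4 against 11.5 and 19.1 against 3.24. Samd9l was at 88.8 against 14.9 and 163 against 11.0, and Gbp7 at 76.1 against 8.81 and 62.6 against 4.53. The receptor subunit Ifnar1 was at 63.4 against 52.9 CPM and 32.7 against 54.4, with no common direction. Of 43 pathway genes compared between L5 PT CTX and other neurons, 3 (6.98%) were higher in both libraries, among them Samd9l (22.05 and 27.2 CPM against 3.70 and 3.30) and Ddx60 (19.0 and 18.2 against 7.86 and 8.57), and 0 lower, beside 2.23% and 4.6% of all genes.

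Interneurons were split by Ifit1, which was found in more of their nuclei than Rsad2, and Pvalb nuclei with Ifit1 also held more of the other members. In Pvalb, 9 male and 14 female nuclei held an Ifit1 UMI, and the other members except Ifit1 summed to a ratio of 6.28 and 25.1 between these and the rest. Rnf213 in Pvalb nuclei with Ifit1 was at 316 against 21.9 CPM and 719 against 21.9, and Rsad2 at 97.2 against 1.69 and 175 against 0.576 (4 and 35 UMIs in the nuclei with Ifit1, 1 and 1 in the rest). A single female Pvalb nucleus held 215 member UMIs of 18 members, 28.9% of those of its label, with 53 of Rnf213, 44 of Ifit1 and 36 of Ifih1. In L5 PT CTX the same split gave ratios of 7.47 and 13.9, from 46 and 33 nuclei.

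Sst nuclei with Ifit1 held no Rsad2 UMI. Ifit1 was at 62.8 and 45.2 CPM in Sst, in 13 and 15 nuclei, and in these no UMI of Rsad2, Ifi44 or Isg15 was found. The sum of the other members was 4.01 and 6.48 times that of the Sst nuclei without Ifit1. Stat2 was at 87.2 against 16.5 CPM and 107 against 9.45, Rnf213 at 102 against 13.8 and 100.7 against 7.09, and Ifit2 at 72.7 against 26.1 and 47.4 against 17.3. For 13 and 15 nuclei an absence of Rsad2 is weakly limited, and whether it differs from L5 PT CTX was not tested. In the Pvalb nuclei with Ifit1, Ifi44 and Isg15 also had 0 UMIs, although Rsad2 did not.

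UMIs of several members in 1 nucleus were also counted at equal depth. At 2300 UMIs, 12.3% of male and 8.90% of female L5 PT CTX nuclei held UMIs of 3 or more members (84 and 9 shallower nuclei left out), and 3.18% and 2.51% of the other neuronal nuclei did. Unknown was at 0% and 0.625%. The exact binomial 95% intervals were 8.63 to 16.9% and 5.84 to 12.9% in L5 PT CTX and 2.01 to 4.78% and 1.52 to 3.89% in the other neuronal labels. They cover counting error over nuclei of 1 pool each and are no test. L6 IT CTX was at 10.7% of 28 and 6.78% of 59 nuclei. Microglia were far above any neuronal label, at 74.2% and 53.9%, then astrocytes at 37.9% and 17.2% and VLMC at 22.4% and 18.2%. The male microglial value covers 194 of 1690 nuclei, those with enough UMIs.

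**Figure D3:**
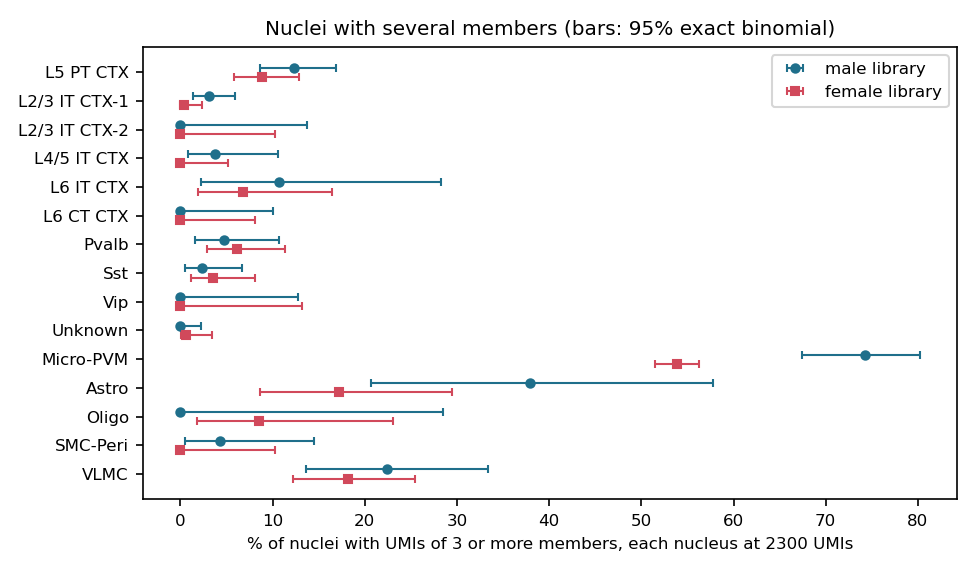
Percent of nuclei with UMIs of 3 or more members after each nucleus was thinned to 2300 UMIs (x axis, linear), by label, with circles for the male and squares for the female library and bars for the exact binomial 95% interval. Microglia lie at 74.2 and 53.9%, L5 PT CTX at 12.3 and 8.90%, and Unknown at 0 and 0.625%.

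The summed level of the 35 members other than Rsad2 was highest in L5 PT CTX and L6 IT CTX among neurons. It was 606 and 494 CPM in L5 PT CTX, 688 and 380.0 in L6 IT CTX, 298 and 365 in Pvalb and 227 and 195 in Sst. It was lowest in Unknown (93.6 and 78.8 CPM), Vip (64.9 and 106) and L6 CT CTX (139 and 105). L5 PT CTX and L6 IT CTX overlapped, and apart from L6 IT CTX every other neuronal label was below L5 PT CTX in both libraries. In L6 IT CTX 64.2% and 55.1% of member UMIs lay in 5 and 6 nuclei, and 1 male nucleus held 34.5%. Microglial markers summed to 899 and 1608 CPM in L6 IT CTX, and their part in its member sum was not tested. Non-neuronal sums were 3226 and 2269 CPM in microglia, 1696 and 836 in astrocytes, 756 and 780.1 in VLMC, 351 and 849 in oligodendrocytes and 644 and 297 in SMC-Peri. In the female oligodendrocytes 80.8% of member UMIs lay in 3 of 42 nuclei. By the mean of both libraries, 23 of the 36 members were highest in microglia, 7 in astrocytes (Cmpk2, Ddx58, Gbp3, Ifi27, Ifit3, Rsad2 and Tlr3), 3 in L5 PT CTX (Ifi44, Ifit1 and Isg15), 2 in oligodendrocytes (Gbp2 and Oasl1) and 1 in SMC-Peri (Irf3). Gbp2 in oligodendrocytes was 0 UMIs in the male library and 16 UMIs of 1 nucleus in the female, and Oasl1 there was 1 and 4 UMIs, so neither place in this order is secure.

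**Figure D4:**
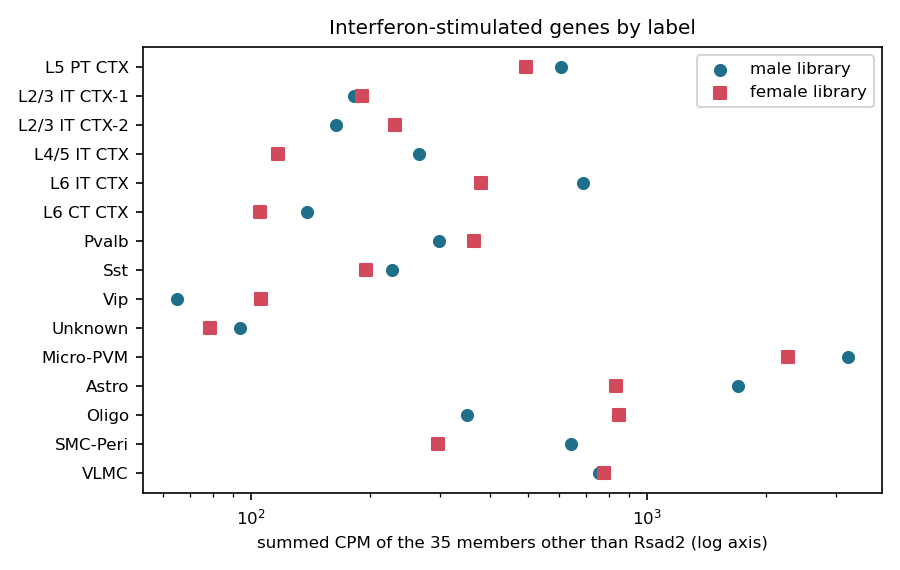
Summed CPM of the 35 members other than Rsad2 (x axis, log scale) in 15 labels, with a circle for the male and a square for the female library. Microglia are highest at 3226 and 2269 CPM, L5 PT CTX lies at 606 and 494, and Unknown at 93.6 and 78.8.

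The members that gave most UMIs differed between groups of labels. In L5 PT CTX these were Rnf213, Ifit1 and Stat2, and in the other neurons the same 3 genes. In microglia they were Rnf213 (480.0 and 477.9 CPM), Trim30a (401 and 268) and Parp14 (337 and 247), an ADP-ribosyltransferase. In the other non-neuronal labels they were Rnf213 (125 and 135), Herc6 (75.9 and 56.0) and Ddx58 (52.4 and 57.1). In Unknown they were Stat2 (18.1 and 22.7 CPM), Irf1 (4.25 and 8.20) and Trim30a (8.51 and 5.68), and Rnf213 was at 7.44 and 3.15.

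Microglia were tested against the 8 neuronal labels other than L5 PT CTX. The test was edgeR's quasi-likelihood test on the sums of 15 labels in 2 libraries, with Benjamini-Hochberg adjustment over 10642 genes and a threshold of 0.05. Of 29 members that passed the filter on low counts, 28 were higher in microglia and 0 lower. Over all genes 32.7% were higher and 26.5% lower. Of the 29, only 8 (Ifit1, Ifit2, Stat2, Ifih1, Trim30a, Rnf213, Herc6 and Eif2ak2) pass the filter on the sums of these neuronal labels alone. The other 21, Rsad2 included, passed through sums of other labels, so for those that passed through microglia a higher level there was largely fixed by the filter, and the count of 28 is no support. Of the 8, 7 were higher and 0 lower, where 29.1% and 33.6% of the 7977 genes that pass in this way were. Not tested were Cmpk2, Isg15, Oasl1, Oas3, Ifi44, Bst2 and Gbp2, which had few UMIs. The labels were made from these same nuclei, the p-values measure the spread between 2 libraries, and 21 of the 29 members were at 0 in both libraries in at least 1 neuronal label, so their fitted fold changes depend on the small prior count that edgeR adds. With the neuronal labels summed into 1 excitatory and 1 inhibitory sum per library, 33 members were tested. Of these 32 were higher and 0 lower, where 27.9% and 26.6% of genes were. This fit was also filtered on all sums, microglia included, and let in Gbp2, which had no UMI in these neuronal labels. The 32 include Rsad2 as well, so that count is no support either.

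Of the 7, Ifih1 was at 106 and 81.8 CPM in microglia against a mean of 6.03 and 9.65 over the neuronal labels (log2 4.53, SE 0.42, edgeR adjusted p = 2.96e-10, and 3.16 with neurons summed by class). Stat2 was at 164 and 117 CPM against 26.0 and 24.4 (log2 3.25, and 2.24 summed), and Eif2ak2 at 129 and 109 against 8.52 and 10.8 (log2 3.93, and 3.25 summed). Rnf213 was at 480.0 and 477.9 against 38.9 and 42.5 (log2 3.99, and 3.48 summed), and Herc6 at 162 and 122 against 32.2 and 17.9 (log2 2.85, and 2.88 summed). Ifit2 had the smallest change of the 7, at 31.3 and 21.9 against 9.75 and 9.36 (log2 2.21, SE 0.44, edgeR adjusted p = 9.34e-05, and 1.19 summed). Both microglial values lay above both neuronal means for each of these.

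Antiviral enzymes and a nucleic acid sensor were among the largest fitted changes, and all 6 genes given here are members that did not pass the filter on the neuronal sums alone. Oas1a was at 150.4 and 61.7 CPM in microglia against a mean of 1.65 and 1.15 over the neuronal labels, a log2 fold change of 6.75 that was 5.77 with neurons summed by class. Oasl2 was at 175 and 88.8 CPM against 4.07 and 2.81 (log2 6.20, and 4.58 summed), and Oas2 at 77.4 and 52.2 against 3.89 and 3.03 (log2 5.13 either way). Parp14 was at 337 and 247 against 5.32 and 5.94 (log2 6.49, and 5.25 summed). Zbp1, a sensor of Z-form nucleic acids that can trigger cell death, was at 53.3 and 27.2 against 0.665 and 0.505 (log2 6.46, and 5.64 summed). Sp100, a nuclear body protein, was at 236 and 156 against 3.37 and 3.85 (log2 5.71, and 5.81 summed). Microglia were above the neuronal mean in both libraries for each of these.

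The remaining large changes were those of Trim30a, the 1 of the 7 not yet described, and of 5 members that did not pass the filter on the neuronal sums alone. Usp18 was at 41.7 and 30.5 CPM in microglia against 1.87 and 1.63 (log2 5.56, and 3.52 summed), Irf7 at 38.1 and 13.3 against 2.42 and 1.22 (4.98) and Irf1 at 21.7 and 21.0 against 1.29 and 1.49 (4.59 and 3.62). Trim30a was at 401 and 268 against 14.4 and 9.91 (4.90 and 4.79), Ifi35 at 89.8 and 40.2 against 8.35 and 5.14 (4.67 and 4.36), and Mx1 at 111 and 74.2 against 5.92 and 3.11 (4.65 and 5.00). The male library was the higher of the 2 in microglia for all of these 6 genes, a difference with 1 library a side and no test.

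Rsad2 was at a mean of 9.08 and 3.19 CPM over the neuronal labels without L5 PT CTX, against 23.7 and 16.0 in microglia. Its low level in those labels was used to choose the list, so no test is given for it. Ifit1 was the member tested and not called, with 19.6 and 8.83 CPM in microglia against a mean of 21.4 and 15.4 over the neuronal labels (log2 1.41, SE 0.83, edgeR adjusted p = 0.15). With the labels summed by class its sign turned, to -0.74 (SE 0.36, edgeR adjusted p = 0.0846), and it was called higher with no filter on low counts (log2 1.56, edgeR adjusted p = 0.0293) and without neuronal nuclei of 2 or more microglial UMIs (log2 2.75, edgeR adjusted p = 0.0438). Ifit1 was thus at or above the microglial level in several neuronal labels, L5 PT CTX, Pvalb and Sst, in both libraries.

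Other genes of the pathway that could be tested were mostly higher in microglia. Of 74 such genes 45 were tested, and 43 were higher in microglia and 2 lower. Over all genes 32.7% were higher and 26.5% lower. Of the 45, 28 passed the filter only through sums of other labels. The count of 43 is thus no support either. Of the 17 that pass the filter on the neuronal sums alone, 15 were higher and 2 lower. Of the 7977 genes that pass in this way 29.1% were higher and 33.6% lower. The genes named next are from all 45 and are not split by this filter. Counts and changes of those that were higher are thus descriptions and no support. All 5 receptor subunits tested (Ifnar1, Ifnar2, Ifngr1, Ifngr2 and Il10rb) and all 8 kinases and factors were higher. Ifnar1 was at 105 and 127 CPM in microglia against 38.0 and 38.6 (log2 1.59, SE 0.19, edgeR adjusted p = 2.06e-08). The largest fitted changes were Slfn2 (log2 6.86), Ifi207 (6.55), Slfn8 (6.20), Irf8 (6.05), Slfn5 (6.04) and Tap1 (5.81). Their neuronal means were low, at 0.752 and 1.73 CPM for Slfn2 and 0.935 and 0.371 for Tap1. The 2 that were lower were Ticam1, the adaptor of Tlr3, at 22.1 and 11.6 CPM against 38.4 and 25.7 (log2 -0.92, SE 0.29, edgeR adjusted p = 0.00802), and Adar, the RNA-editing enzyme, at 138 and 103 against 207 and 186 (log2 -0.73, SE 0.17, edgeR adjusted p = 0.000373).

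The interferons themselves were nearly absent from these nuclei. No UMI of Ifnb1, Ifna1, Ifna2 or Ifna4 was found in L5 PT CTX, the other neuronal labels, microglia or astrocytes. Ifng and Ifne had 1 UMI each and Ifnk 3, all in neuronal labels. In the 1690 and 2338 microglia a count of 0 allows up to 1.20 and 0.373 CPM. Interferon RNA of cells that were not sorted was not measured here.

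Few members were called between inhibitory and excitatory neurons (without L5 PT CTX). In the fit over labels, 1 of the 29 tested members was higher in inhibitory neurons, where 8.17% of genes were. In the same fit 2 were lower, where 8.67% were. Rsad2, Ifit1, Ifit3, Irf1, Irf7, Oasl2, Oas1a, Dhx58, Usp18, Zbp1 and Gbp3 had SE from 53.5 to 3653 on the log2 scale. This fit could not call them, so the 29 overstate the members that it could compare. Ifit2 was at 14.3 and 16.1 CPM in the inhibitory mean against 7.05 and 5.30 (log2 2.28, SE 0.72, edgeR adjusted p = 0.0281). Herc6 was at 14.4 and 7.49 against 42.9 and 24.1 (log2 -1.51, SE 0.38, edgeR adjusted p = 0.00441). With labels summed by class they were at 1.61 (edgeR adjusted p = 0.03) and -1.36 (edgeR adjusted p = 0.0312). These shares are not above those of all genes, and with free RNA subtracted by either profile no member was called in either direction (edgeR adjusted p = 0.206 and 0.0552 for Ifit2, 0.191 and 0.0583 for Herc6). Without neuronal nuclei over 2000 CPM of microglial markers Ifit2 lost its call (edgeR adjusted p = 0.0509), and without those of 2 or more microglial UMIs Herc6 did (edgeR adjusted p = 0.171) while Ifit2 had too few UMIs to be tested. The labels were made from the same counts as this test.

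Stat2 and Ifit1 depended on how the labels were joined. Stat2 was called lower in inhibitory neurons over labels (17.0 and 19.7 CPM against 31.3 and 27.2, log2 -2.55, SE 0.83, edgeR adjusted p = 0.0316), with 1 neuronal label at 0, and was at 0.12 (edgeR adjusted p = 0.893) in the sums by class. Ifit1, at 34.6 and 33.1 CPM in the inhibitory mean against 13.4 and 4.84, had no usable test over labels, because 2 of them were at 0 and the SE was 1647 on the log2 scale, and in the sums by class it was higher in inhibitory neurons (log2 2.63, SE 0.41, edgeR adjusted p = 0.000158). Of 45 pathway genes tested, 3 (6.67%) were higher in inhibitory neurons and 0 lower, where 8.17% and 8.67% of all genes were. The 3 were Stat3 (log2 1.13, edgeR adjusted p = 3.14e-05), Jak1 (0.51) and Adar (0.37). Il10rb, Tlr4, Ifi207, Irgm1, Iigp1, Gbp5, Tap1, Slfn2, Slfn8, Samd9l and Dtx3l had SE from 270 to 5128 on the log2 scale. They too could not be called.

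Within microglia the summed members and Rsad2 were at their highest level in 1 of 8 deposited clusters that had at least 20 nuclei in each library. Cluster 10 held 119 male and 123 female nuclei, 7.04% and 5.26% of microglia. The 35 other members summed to 9171 and 10062 CPM in it and to between 2315 and 3345 (male) and between 1427 and 1947 (female) in the 7 other clusters. Rsad2 was at 154 and 171 CPM against 0 to 23.5 and 0 to 10.3. Of the microglia with Rsad2, 15 of 41 and 32 of 71 lay there, and most lay outside it. Ifit3 was at 282 and 193 CPM in cluster 10, Usp18 at 154 and 199, Ifit1 at 99.0 and 76.5 and Cmpk2 at 54.5 and 32.2. Clusters were built by the study from the same genes, so this is a description and no test. Its median depth of 1558 and 3672 UMIs was inside the range of the other clusters (945 to 2287 and 1961 to 4822.5).

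**Figure D5:**
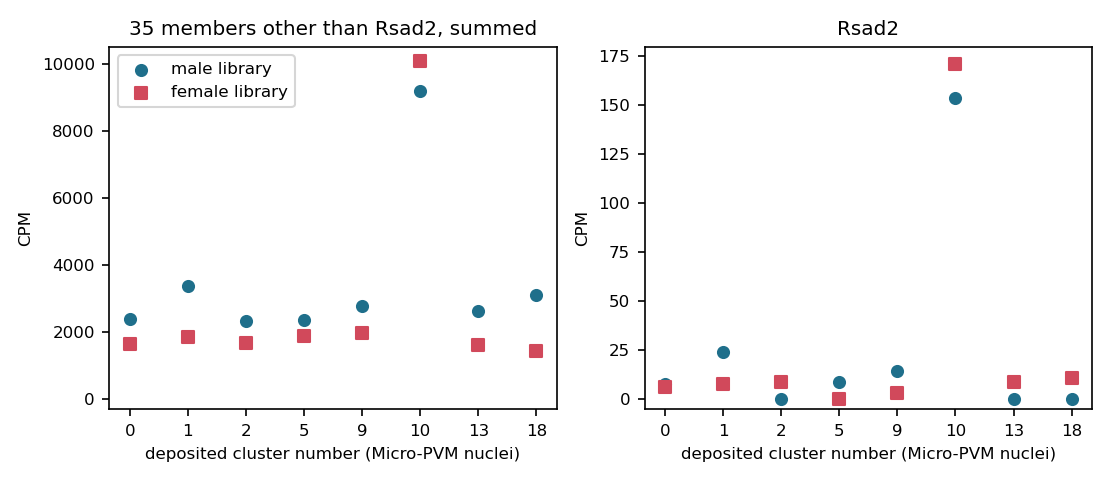
CPM (y axes, linear) of the 35 members other than Rsad2 summed (left) and of Rsad2 (right) in the 8 deposited clusters of Micro-PVM nuclei, circles for the male and squares for the female library. Cluster 10 stands apart in both panels, at 9171 and 10062 CPM for the sum and 154 and 171 CPM for Rsad2.

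The level of Rsad2 in L5 PT CTX changed with how nuclei with microglial RNA were handled. With neuronal nuclei over 2000 CPM of microglial markers left out, 330 male and 251 female L5 PT CTX nuclei remained and the mean was 37.1 CPM. With every nucleus of 2 or more microglial marker UMIs left out, 136 male and 7 female nuclei remained and Rsad2 was at 9.89 and 0 CPM, in 2.94% and 0% of nuclei. A limit in UMIs removes deep nuclei first, and the female value rests on 7 nuclei. With free RNA subtracted by the profile of barcodes of more than 100 and up to 500 UMIs, the levels were 46.4 and 39.3 CPM.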

How the data were processed

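Single-nucleus RNA was read from 2 droplet libraries (10x 3′ v3), 1 pool of 4 mice each. The deposited counts are UMIs per gene and nucleus that the authors made with Cell Ranger on a pre-mRNA mm10 reference. The sources differ on its version (3.1.0 in the submitters' processing notes, 7.0.1 in the study's methods and a file header). The authors clustered nuclei with Seurat and mapped them to a motor cortex reference, and the deposited table also gives the percent of mitochondrial UMIs, which the authors computed per nucleus. Labels are the authors'. Their stated limits of 6000 genes and 5% mitochondrial UMIs were exceeded by 104 deposited nuclei, which were kept. The deposited corrected matrix was not used here, and no doublet caller was run.

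UMIs were summed per library and label (neuronal labels with at least 50 nuclei in the neuron subset). The 30 sums were fitted with edgeR 4.0.16 in R 4.3.3 (TMM factors, filterByExpr, quasi-likelihood test, Benjamini-Hochberg adjustment, threshold 0.05), with SE as the absolute log2 fold change over the root of F. limma 3.58.1, DESeq2 1.42.0, Python 3.11.15, numpy 2.4.6, scipy 1.17.1, pandas 2.3.3 and matplotlib 3.10.9 were also used. The fit was tested on simulated data. Folds between sums used 1 CPM added to each value. Intervals are exact (Clopper-Pearson) 95% intervals and, like the limits for 0 counts (3 counts), cover counting error only, and thinning drew UMIs without replacement (seed 1). Nothing says that the libraries vary as independent animals would, so p-values measure the spread between 2 pools.

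The members and lists were chosen with earlier results of these data known. Values per library are given for Rsad2 and Cmpk2 in every label, the 3 members with the most UMIs in each group of labels, members called (up to 12 a direction), members at least 2-fold higher in L5 PT CTX or in its Rsad2 nuclei, and up to 6 other pathway genes a direction. Other genes named were chosen after their values were seen, and the values of 1 pathway gene are not reported here. Labels of 1 library share their animals, so library was tried as a block. The correlation of library differences between labels had a median of 0.112 over 105 pairs (from -0.048 to 0.377). Alternatives were other scalings, DESeq2, no filter, subtraction of free RNA, limits on microglial UMIs, other labels and leaving out each library.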

Additional observations from a re-analysis of the deposited data

Results flagged for a closer look

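Nuclei with a neuronal label in the table of all nuclei that are outside the neuron subset entered no comparison, and they held the members at high levels. There were 421 male and 152 female nuclei of this kind. Their 35 members other than Rsad2 summed to 2394 and 1354 CPM (male, female), above the 234.3 and 233.7 CPM of the pooled neuronal labels other than L5 PT CTX, which served as the reference. They were shallow, with medians of 681 and 911.5 UMIs per nucleus. Their microglial markers summed to 4624 and 5318 CPM and their neuronal markers to 3458 and 2202 CPM. The part of microglial RNA in their member levels was not tested. No other result met a criterion for a closer look, since groups of 2 libraries are too small for a test of single outlying samples.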

How the results depend on the processing

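Of 554 values of single members under an alternative, 539 kept their side of the threshold, 11 lost the call and 3 gained one. The remaining 1 was called in the main fit and turned, Stat2 between inhibitory and excitatory neurons. It was at 0.12 (log2) with the neuronal labels summed by class. The 539 include values whose sign turned while neither fit called the member, such as Ifit1 between microglia and neurons. Free RNA was subtracted with barcodes of up to 100 UMIs or, as a choice made after seeing the data, of more than 100 and up to 500. Also chosen after seeing the data were the limit of 2000 CPM of microglial markers, the sums by class and leaving out Rnf213 in the split by Rsad2.

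Members higher in inhibitory neurons numbered 1 of 29, where 8.17% of all genes were. They numbered 0 with free RNA subtracted (3.31% of all genes by the first profile, 6.34% by the second). They also numbered 0 with nuclei of 2 or more microglial UMIs left out (1.79%) and under the 2000 CPM limit (7.84%). In the sums by class they numbered 2 of 33 (4.2%). Members lower there numbered 2 (8.67% of all genes). They numbered 1 with no filter on low counts (3.39%) and in the sums by class (5.41%). With free RNA subtracted by the first and second profile they numbered 0 (3.58% and 5.47%). Without nuclei of 2 or more microglial UMIs they numbered 0 as well (1.87%). Rsad2 in L5 PT CTX moved from 36.4 CPM to 42.9 (free RNA, second profile) and 4.95 (without nuclei of 2 or more microglial UMIs). In the other neuronal labels it moved from 5.36 CPM to 4.18 and 4.99 (free RNA, first and second profile), 2.76 (2 or more microglial UMIs), 5.43 (the study's limits on genes and mitochondrial UMIs), 5.65 (2000 CPM limit) and 8.10 (the labels of all nuclei in place of the neuron subset). The ratio of both moved from 6.79 to 9.94 and 8.74 (free RNA), 7.996 (2 or more microglial UMIs, 16.0 and 0 in the libraries) and 4.27 (labels of all nuclei).

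The summed other members moved in L5 PT CTX from 549.9 CPM to 448.8 (free RNA, first profile), 337 (2 or more microglial UMIs) and 419 (without Rnf213), and in the other neuronal labels from 234.0 to 116 and 162 (free RNA), 229.5 (2 or more microglial UMIs), 226 (2000 CPM limit) and 321 (labels of all nuclei). The share with Rsad2 in L5 PT CTX moved from 7.49% to 2.46% at 1000 UMIs, 4.76% at 2300 UMIs, 1.47% (2 or more microglial UMIs) and 7.82% (2000 CPM limit), in other neurons from 1.04% to 0.405% and 0.692% at these depths, and in microglia from 2.73% to 1.49% at 1000 UMIs. Thinning lowers shares of nuclei with a UMI by construction. The cause of the other moves, those from leaving out nuclei included, was not tested.

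Members higher in microglia numbered 28 of 29, where 32.7% of all genes were. They ranged from 22 of 22 (2 or more microglial UMIs, 38.8% of all genes) to 36 of 36 (no filter, 22.9%), with DESeq2 at 28 (30.7%). Under any of these settings 0 were lower, where 10.9% to 29.9% of all genes were. Of the 29, 21 passed the filter only through sums of other labels, so the counts with a filter are no support. The 36 include Rsad2, whose low level in these neurons was used to choose the list. They also include Ifit1, at 19.6 and 8.83 CPM in microglia against a neuronal mean of 21.4 and 15.4. For Ifit1 2 neuronal labels were at 0 in both libraries, so its fitted change depends on the small prior count. The count of 36 is thus no support either. Over all genes, those lower in microglia ranged from 1238 to 3510 and those higher in inhibitory neurons from 159 to 1026, and the median log2 fold change of all genes in microglia from 0.04 to 0.85. The replicate block (library) left the counts of members at 28, 0, 1 and 2, and changed no call of a member. With either library left out, Rsad2 in L5 PT CTX was between 33.0 and 39.8 CPM, the ratio between 6.10 and 7.48 and the ratio in the split by Rsad2 between 5.77 and 15.9. The fits could not be run on 1 library, the split had no value without nuclei of 2 or more microglial UMIs, and L6 CT CTX then had no female nuclei left.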
